A study of Mus musculus with 6 samples.

Results

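The genes described here are 10 imprinted genes of the imprinted growth network: H19, Igf2, Dlk1, Meg3, Rian, Mest, Peg3, Plagl1, Cdkn1c and Grb10. They were taken by gene symbol from the deposited table, which holds 57010 genes, and each symbol matched 1 row. The values come from RNA-seq of skin of 6 wild-type mice at the end of a diabetic ulcer experiment, each mouse giving 1 library. The gel put on the skin of 3 mice carried CST, which the series title gives as cortistatin, a peptide of the somatostatin family. The gel of the other 3 mice carried Yoda1, a synthetic opener of the calcium channel Piezo1. The labels name no strain, age or method of inducing diabetes, all 6 animals share the wound setting, and skin without either agent was not analysed here, so every comparison sets one treatment against the other. The levels are FPKM, fragments per kilobase of gene scaled to depth, and 9 of the 10 genes reached the mean of 1 FPKM over the 6 libraries that was required for testing. Igf2 did not, and is described without a test.

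Imprinted genes are transcribed mainly or only from the copy inherited from one parent. In mouse, Igf2, Dlk1, Mest, Peg3 and Plagl1 are known as paternally expressed, and H19, Meg3, Rian and Cdkn1c as maternally expressed. Grb10 is maternally expressed in most mouse tissues. Many of them are co-expressed in fetal tissues, control growth and are shut down after birth, and several come back in regenerating muscle, where Myh3, the embryonic myosin heavy chain, and Actc1, the cardiac actin of embryonic muscle, are also made. FPKM adds both parental copies together, so the parent of origin of a transcript was not measured.

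The network genes sit in a few clusters, and several are host transcripts of microRNAs. On GRCm38 (GENCODE M21), H19 lies on chromosome 7 at 142575529 to 142578143 and Igf2 beside it at 142650766 to 142666816, both on the minus strand. Cdkn1c (143458339 to 143461050) and Peg3 (6703892 to 6730431) lie on the same chromosome. Dlk1 (109452823 to 109463336), Meg3 (109541001 to 109571726) and Rian (109603940 to 109661716) follow each other on the plus strand of chromosome 12. Mest lies on chromosome 6 at 30723547 to 30748465, Plagl1 on chromosome 10 at 13060504 to 13131694 and Grb10 on chromosome 11 at 11930508 to 12038683. Inside these genes, on the same strand, RefSeq (GRCm38.p6) places 7 microRNA hairpins with 14 mature microRNAs, 1 hairpin each in H19, Igf2, Meg3 and Mest and 3 in Rian. None of the 14 shared its seed with another. The mature sequences hosted by H19 and Igf2, which belong to the genes highest in the mice numbered 2 described below, and 1 each of Mest and Meg3, which belong to the others, are shown with the seed (bases 2 to 8) in capitals.
mmu-miR-675-5p (H19): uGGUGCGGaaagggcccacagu
mmu-miR-675-3p (H19): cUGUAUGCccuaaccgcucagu
mmu-miR-483-5p (Igf2): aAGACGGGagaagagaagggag
mmu-miR-483-3p (Igf2): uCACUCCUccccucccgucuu
mmu-miR-335-5p (Mest): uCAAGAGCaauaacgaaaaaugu
mmu-miR-770-5p (Meg3): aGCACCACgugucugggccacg
The rows Mir675 and Mir770 were listed at 0 in all 6 libraries, so the values below are of the host transcripts and say nothing of the mature microRNAs.

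The promoters of Myh3 and Actc1, of Igf2, which among the 10 genes had the highest correlation with both, and of Peg3, which holds the motif searched, are shown from 250 bases before to 50 bases after the gene start (RefSeq, GRCm38.p6). For Igf2, which has 4 promoters in the table, the one with the most CpG dinucleotides (24) is shown. Capitals mark GGGGCCCC, the letters at the core of the GC-rich motif of Plagl1. CAGCTG, the E-box bound by myogenic factors, was searched too, and both motifs read the same on either strand.
Igf2, chr7:142658755-142659054, minus strand: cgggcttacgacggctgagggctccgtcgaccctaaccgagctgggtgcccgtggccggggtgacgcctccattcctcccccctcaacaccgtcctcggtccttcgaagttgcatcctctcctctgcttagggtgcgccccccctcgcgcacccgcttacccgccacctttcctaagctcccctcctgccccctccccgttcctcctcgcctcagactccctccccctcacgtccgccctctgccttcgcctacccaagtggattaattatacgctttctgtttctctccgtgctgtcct
Peg3, chr7:6730370-6730669, minus strand: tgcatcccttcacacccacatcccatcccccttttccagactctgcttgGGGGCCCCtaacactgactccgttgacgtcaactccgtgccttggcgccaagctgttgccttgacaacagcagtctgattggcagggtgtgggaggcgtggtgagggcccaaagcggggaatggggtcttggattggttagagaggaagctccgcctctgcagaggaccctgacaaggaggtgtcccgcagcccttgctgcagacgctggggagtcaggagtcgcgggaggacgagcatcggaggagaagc
Myh3, chr11:67078050-67078349, plus strand: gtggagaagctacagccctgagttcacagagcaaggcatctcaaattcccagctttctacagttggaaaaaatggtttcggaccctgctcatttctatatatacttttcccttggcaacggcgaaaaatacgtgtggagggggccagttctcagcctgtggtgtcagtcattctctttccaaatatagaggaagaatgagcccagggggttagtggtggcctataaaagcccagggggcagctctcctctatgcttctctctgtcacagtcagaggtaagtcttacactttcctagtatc
Actc1, chr2:114052826-114053125, minus strand: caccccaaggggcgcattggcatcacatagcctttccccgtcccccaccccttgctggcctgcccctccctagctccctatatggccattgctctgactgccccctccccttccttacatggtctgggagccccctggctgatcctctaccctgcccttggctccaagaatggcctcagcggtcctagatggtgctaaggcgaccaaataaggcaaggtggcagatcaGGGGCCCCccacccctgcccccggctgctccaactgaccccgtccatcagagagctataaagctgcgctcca
The search covered 8 of the 10 genes; H19 and Cdkn1c were not searched. GGGGCCCC stood in the Peg3 and Actc1 windows and in no other promoter searched for these 8 genes or Myh3, and 1.08% of the 32851 promoters in the table hold it. CAGCTG stood in 1 of the 3 Mest promoters and in none of the others searched for these 8 genes or for Myh3 and Actc1, where 16.3% of all promoters hold it.

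Across the 6 libraries the network split into 2 sets by where its genes were highest. Igf2, H19, Cdkn1c and Peg3 had their 2 highest values in CST mouse 2 and Yoda1 mouse 2, as did Myh3 and Actc1. Dlk1, Meg3, Rian, Mest, Plagl1 and Grb10 had theirs in Yoda1 mouse 1 and Yoda1 mouse 2. Of all 14588 tested genes, 6.27% had their 2 highest libraries in the first combination and 15.1% in the second. No network gene had its 2 highest values in any of the other 13 combinations of libraries. Yoda1 mouse 2 was thus in the top pair of every network gene. The sets differ only in whether CST mouse 2 or Yoda1 mouse 1 joined it. For Mest that margin was small, at 48.7 FPKM in Yoda1 mouse 1 and 40.8 FPKM in CST mouse 2.

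**Figure D1:**
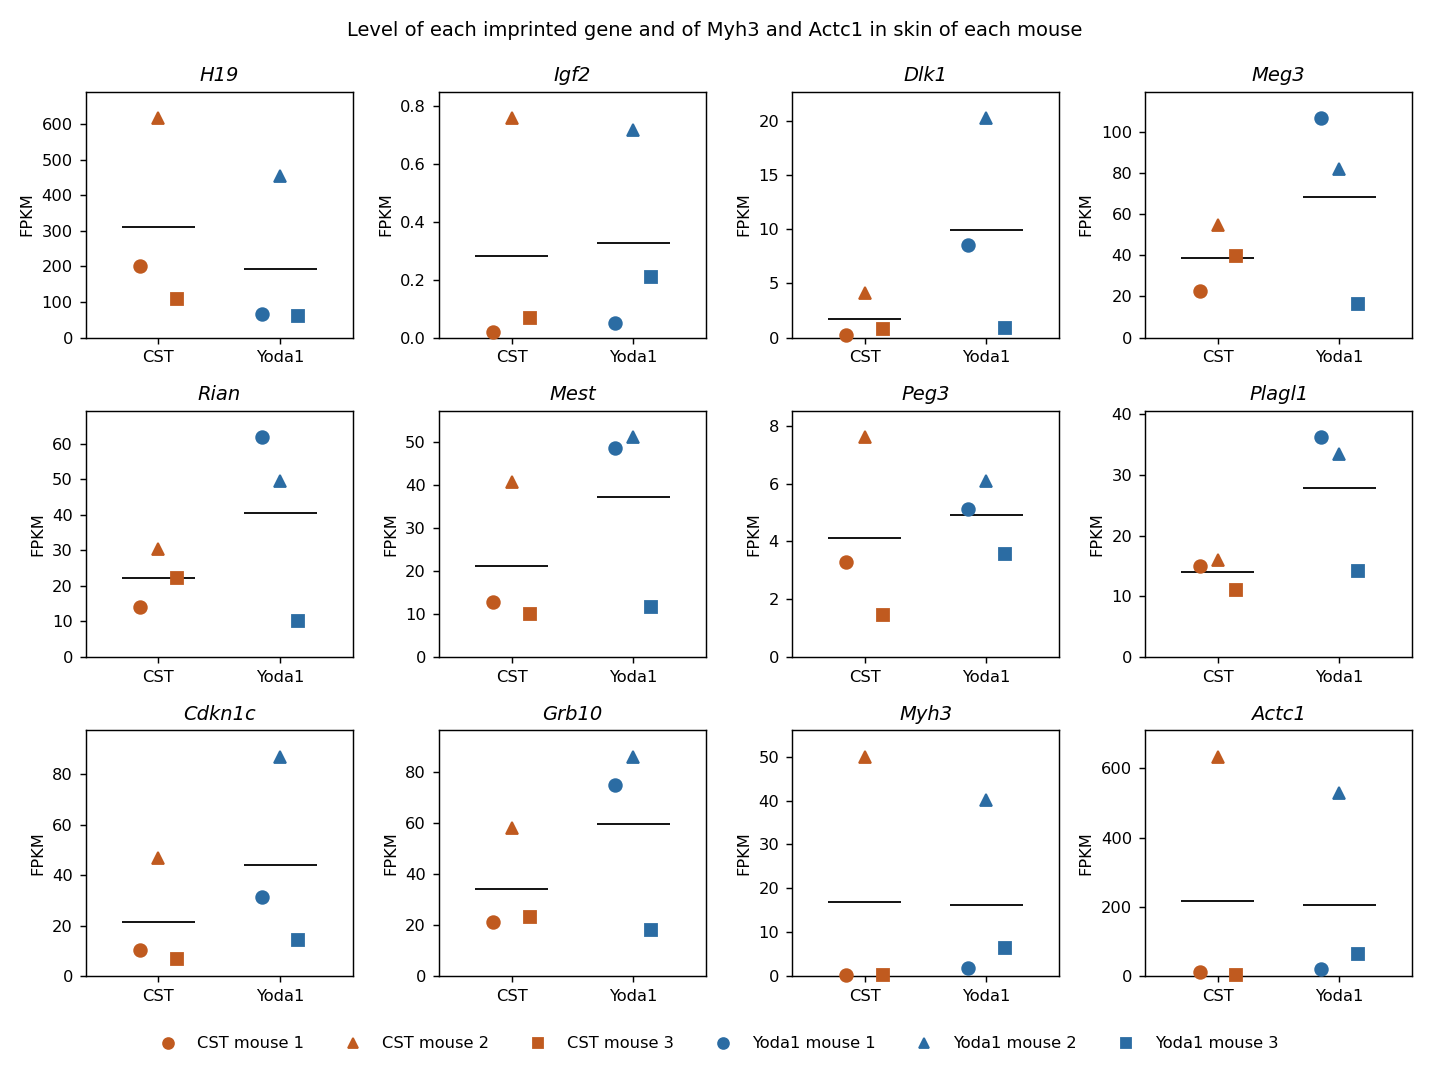
Level (FPKM, linear axes from 0, a separate scale per gene) of each network gene and of Myh3 and Actc1, with 1 point per mouse and the group mean as a line. In no panel are the 3 CST values separated from the 3 Yoda1 values.

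**Figure D2:**
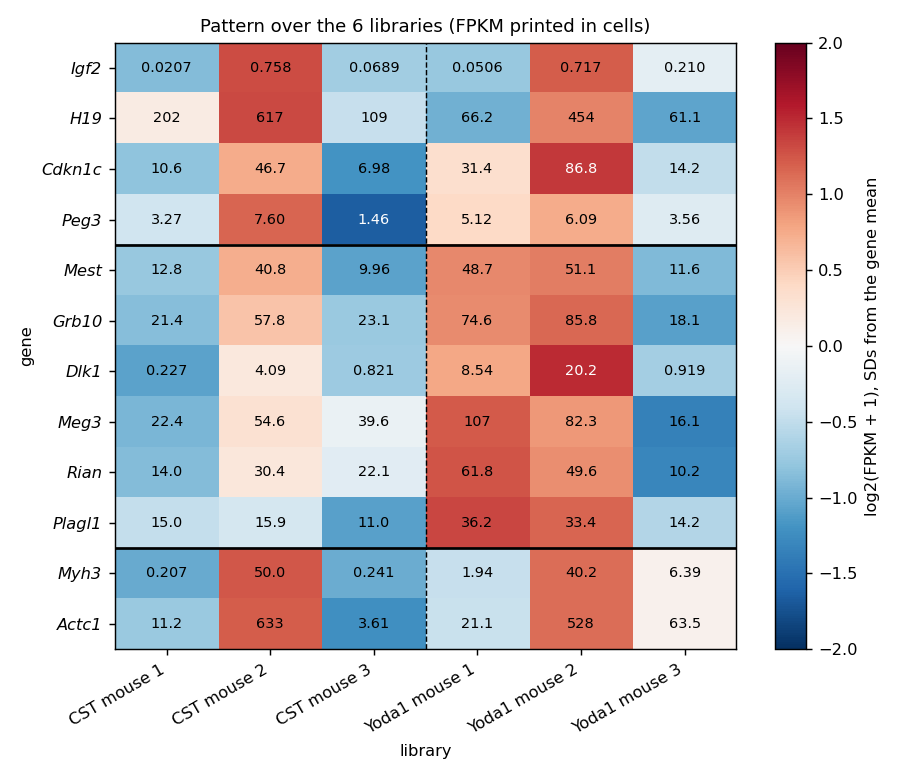
Pattern over the 6 libraries: the colour gives log2(FPKM + 1) as SDs from each gene's mean over the libraries, and the FPKM is printed in each cell. The upper block holds the 4 genes highest in both mice numbered 2, the middle block the 6 genes highest in Yoda1 mice 1 and 2, and the lower block Myh3 and Actc1.

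Myh3 and Actc1, the muscle genes that shared their 2 highest libraries with the first set, varied widely between mice. Myh3 measured 0.207, 49.97 and 0.241 FPKM in CST mice 1 to 3, against 1.94, 40.2 and 6.39 in Yoda1 mice 1 to 3. Actc1 measured 11.2, 633 and 3.61 FPKM in CST mice, against 21.1, 528 and 63.5 in Yoda1 mice. In both genes, 1 mouse of each treatment stood far above the others of its group, and the treatments overlapped. Myh3 spanned 241-fold and Actc1 176-fold between the highest and the lowest library. Of a list of 19 genes of embryonic and regenerating muscle, which includes Myh3 and Actc1, 17 were tested and 16 of these had their 2 highest values in both mice numbered 2. Between treatments 0 of the 17 were called, 7 had a positive and 10 a negative log2 change, and the median was -0.10. That median was 2.16 with library weights, 0.77 without Yoda1 mouse 2, -0.94 without CST mouse 2 and -0.71 over genes averaging 5 FPKM or more, so neither its sign nor its size held. Des and Myf6, a myogenic transcription factor gene, were called higher in CST skin without Yoda1 mouse 2, with both mice numbered 2 left out and with library weights, the last of which also called Chrnb1, an acetylcholine receptor subunit gene (the shares of all tested genes called were 0.932%, 1.18% and 9.24%). The summed level of that list was 932, 2068 and 891 FPKM in CST mice 1 to 3, against 92.1, 1889 and 247 in Yoda1 mice 1 to 3. Des, the muscle intermediate filament gene that adult fibres also express, made up most of it in CST mice 1 and 3. Without Des the sum was 82.6, 1339 and 65.0 FPKM in CST mice, against 66.0, 1285 and 177 in Yoda1 mice. Of its defining markers, Myh8, the perinatal myosin, measured 1.07, 58.4 and 1.28 FPKM in CST mice, against 1.14, 39.7 and 2.36 in Yoda1 mice. Chrng, the fetal subunit of the acetylcholine receptor, measured 0.365, 27.02 and 0.882 FPKM in CST mice, against 1.27, 34.9 and 3.63 in Yoda1 mice. The satellite cell marker Pax7 measured 0.120, 0.657 and 0.0363 FPKM in CST mice, against 0.00891, 0.423 and 0.0555 in Yoda1 mice, so it too was highest in both mice numbered 2. Pax7 was below the filter and not tested, with 11, 69 and 4 reads in CST mice and 1, 47 and 5 in Yoda1 mice. Of the other satellite cell genes listed, Myf5, Cdh15 and Megf10 shared this order. Vcam1 was highest in Yoda1 mice 1 and 2, and Calcr, with at most 7 reads, in CST mice 1 and 2.

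H19, a noncoding RNA that restrains growth and is known to persist in mouse muscle after birth, was the most abundant of the 10 genes per length, by its median FPKM over the libraries (156). H19 measured 202, 617 and 109 FPKM in CST mice 1 to 3, against 66.2, 454 and 61.1 in Yoda1 mice 1 to 3. The 2 treatments overlapped because Yoda1 mouse 2 lay above CST mice 1 and 3, while CST mouse 2 held the highest value of all. The means were 309 ± 271 FPKM in CST skin and 194 ± 225 FPKM in Yoda1 skin (SD, n = 3 each). H19 was the only tested network gene with a positive log2 change (0.95, standard error 0.87, adjusted p = 1.000 by limma).

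Igf2, the fetal growth factor whose gene shares enhancers with H19, was counted at very low levels. It measured 0.0207, 0.758 and 0.0689 FPKM in CST mice 1 to 3, against 0.0506, 0.717 and 0.210 in Yoda1 mice 1 to 3. These values rest on 1, 42 and 4 recovered reads in CST mice and 3, 42 and 10 in Yoda1 mice. The 2 libraries with 42 reads are those in which Myh3 and Actc1 stood apart. There the H19 level was 814 times the Igf2 level in CST mouse 2 and 633 times in Yoda1 mouse 2. Igf2os, an antisense RNA that shares exon sequence with Igf2, reached at most 0.321 FPKM, and the sources used here do not give the strand of the reads. Gm49394, a protein-coding gene on the same strand, shares 3596 bases of exon with Igf2 and reached at most 0.00762 FPKM. The Igf2 values rest on a length of 2000 bases, against 5723 annotated exon bases. Whether reads in the shared exons were left out of the count was not tested, which limits the Igf2 level and its ratio to H19.

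Cdkn1c encodes a cyclin-dependent kinase inhibitor that takes cells out of the cell cycle during differentiation. It measured 10.6, 46.7 and 6.98 FPKM in CST mice 1 to 3, against 31.4, 86.8 and 14.2 in Yoda1 mice 1 to 3. The 2 lowest values belonged to CST mice 1 and 3, while CST mouse 2 lay above Yoda1 mice 1 and 3. The log2 change was -1.10 (standard error 0.79, adjusted p = 1.000 by limma).

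Peg3 encodes a zinc finger protein, and its values spanned 5.19-fold over the libraries, against 89.3-fold for Dlk1. It measured 3.27, 7.60 and 1.46 FPKM in CST mice 1 to 3, against 5.12, 6.09 and 3.56 in Yoda1 mice 1 to 3. CST mice held both the highest and the lowest value. The log2 change was -0.38 (standard error 0.44, adjusted p = 1.000 by limma), and it was 0.06 without CST mouse 3.

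The second set includes all 3 network genes of chromosome 12. Dlk1 encodes a transmembrane protein of the Notch ligand family that holds back fat cell differentiation. Dlk1 measured 0.227, 4.09 and 0.821 FPKM in CST mice 1 to 3, against 8.54, 20.2 and 0.919 in Yoda1 mice 1 to 3. It had the widest range of the tested network genes, 89.3-fold, with 11 reads in the lowest library and 1194 in the highest. The means were 1.71 ± 2.08 FPKM in CST skin and 9.90 ± 9.74 FPKM in Yoda1 skin (SD, n = 3 each). Its log2 change was the most negative of the tested network genes (-1.70, standard error 0.87, adjusted p = 1.000 by limma).

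Meg3 and Rian are noncoding RNAs made from the other parental copy of the Dlk1 domain, and Rian carries small nucleolar RNAs. Meg3 measured 22.4, 54.6 and 39.6 FPKM in CST mice 1 to 3, against 107, 82.3 and 16.1 in Yoda1 mice 1 to 3. Rian measured 14.0, 30.4 and 22.1 FPKM in CST mice, against 61.8, 49.6 and 10.2 in Yoda1 mice. Both were lowest in Yoda1 mouse 3 and highest in Yoda1 mouse 1, so the Yoda1 group spanned the CST group. The log2 change was -0.51 for Meg3 (standard error 0.67, adjusted p = 1.000 by limma) and -0.57 for Rian (standard error 0.63, adjusted p = 1.000 by limma).

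The 2 RNAs kept nearly the same proportion in every library, while Dlk1 did not follow them. The ratio of Meg3 to Rian FPKM was 1.601, 1.80 and 1.79 in CST mice 1 to 3, against 1.73, 1.66 and 1.59 in Yoda1 mice 1 to 3. The ratio of Meg3 to Dlk1 FPKM ranged from 13.4 to 98.9 in CST mice, against 4.06 to 17.6 in Yoda1 mice. Mirg, another noncoding RNA further along the same strand and not one of the 10 genes, stood in a ratio of Meg3 to Mirg of 16.7 to 18.8 in CST mice, against 13.3 to 20.4 in Yoda1 mice. Of the other paternally expressed genes of this domain, Rtl1 stayed at or below 0.215 FPKM and Dio3 at or below 0.811 FPKM in all 6 libraries.

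**Figure D3:**
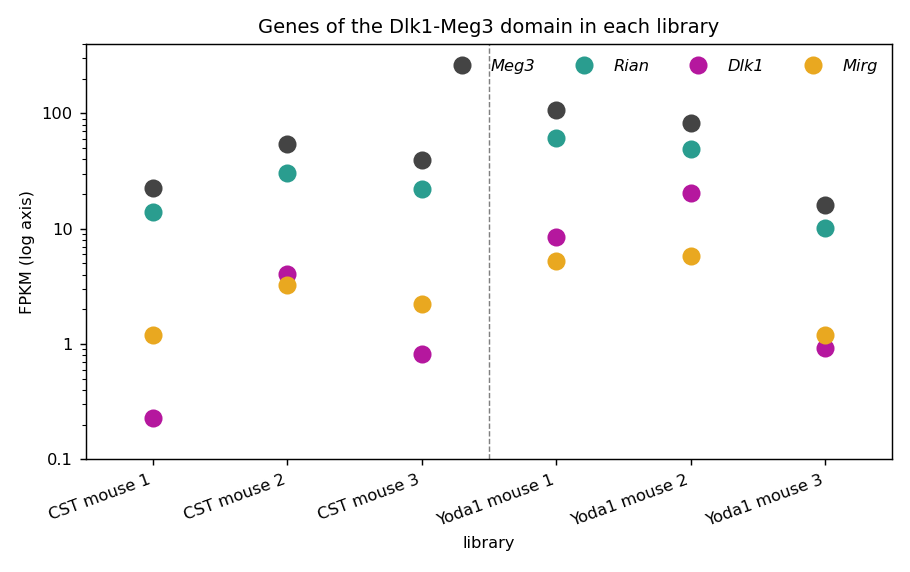
FPKM (log axis) of Meg3, Rian, Dlk1 and their neighbour Mirg in each library, with CST left of Yoda1. Meg3 and Rian keep a near constant distance, with ratios of 1.59 to 1.80, whereas Dlk1 ranges from 0.227 FPKM in CST mouse 1 to 20.2 FPKM in Yoda1 mouse 2.

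Mest, Plagl1 and Grb10, each on a chromosome of its own, made up the rest of the second set. Plagl1 is a zinc finger transcription factor known to act on other genes of this network. It measured 14.98, 15.9 and 11.03 FPKM in CST mice 1 to 3, against 36.2, 33.4 and 14.2 in Yoda1 mice 1 to 3. Yoda1 mice 1 and 2 lay above every CST mouse, and Yoda1 mouse 3 lay within the CST range. The log2 change of Plagl1 was -0.86 (standard error 0.36, unadjusted p = 0.0463, adjusted p = 1.000 by limma).

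Mest encodes an enzyme-like protein of the hydrolase fold that is abundant in fetal mesoderm. It measured 12.8, 40.8 and 9.96 FPKM in CST mice 1 to 3, against 48.7, 51.1 and 11.6 in Yoda1 mice 1 to 3. Its order was intermediate between the sets, with CST mouse 2 close under the 2 highest Yoda1 mice and the other 3 libraries between 9.96 and 12.8 FPKM. The log2 change was -0.79 (standard error 0.67, adjusted p = 1.000 by limma). Mest shares 912 bases of exon with Copg2 on the opposite strand, and reads there cannot be told apart without strand. Copg2 itself measured 23.5, 26.99 and 32.0 FPKM in CST mice, against 24.7, 25.6 and 28.1 in Yoda1 mice, and did not share the Mest pattern.

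Grb10 encodes an adaptor that binds the insulin and IGF1 receptors and dampens their signal. It measured 21.4, 57.8 and 23.1 FPKM in CST mice 1 to 3, against 74.6, 85.8 and 18.1 in Yoda1 mice 1 to 3. As in Mest, CST mouse 2 came next after Yoda1 mice 1 and 2, and the other 3 libraries lay far lower. The log2 change was -0.66 (standard error 0.62, adjusted p = 1.000 by limma).

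Between the treatments none of these differences passed the test. limma called 0 of the 9 tested network genes at an adjusted p under 0.05, and 0.00% of the 14588 tested genes. At an unadjusted p under 0.05 there was 1 of the 9, Plagl1, where 4.0% of all tested genes were under that level. In 0 of the 9 did the 3 values of one treatment all lie above those of the other, where 6.59% of all tested genes were separated in this way. The log2 change was negative in 8 of the 9, with a median of -0.66, where 52.8% of all tested genes were negative and their median was -0.02. Myh3 (-1.18, standard error 1.53) and Actc1 (-1.47, standard error 1.84) were not called either (adjusted p = 1.000 by limma for each), and their group means were close, for Myh3 16.8 ± 28.7 FPKM in CST skin and 16.2 ± 20.9 FPKM in Yoda1 skin (SD, n = 3 each). With library weights estimated by limma, 2 of the 9 were called, Plagl1 and Rian, both lower in CST skin, where 9.24% of all tested genes were called. The weight was 12.8 for Yoda1 mouse 1, against 0.657 and 0.193 for Yoda1 mice 2 and 3. Calls with library weights, here and in the other lists, therefore rest mostly on 1 Yoda1 library. Plagl1 and Rian were both highest in that mouse.

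**Figure D4:**
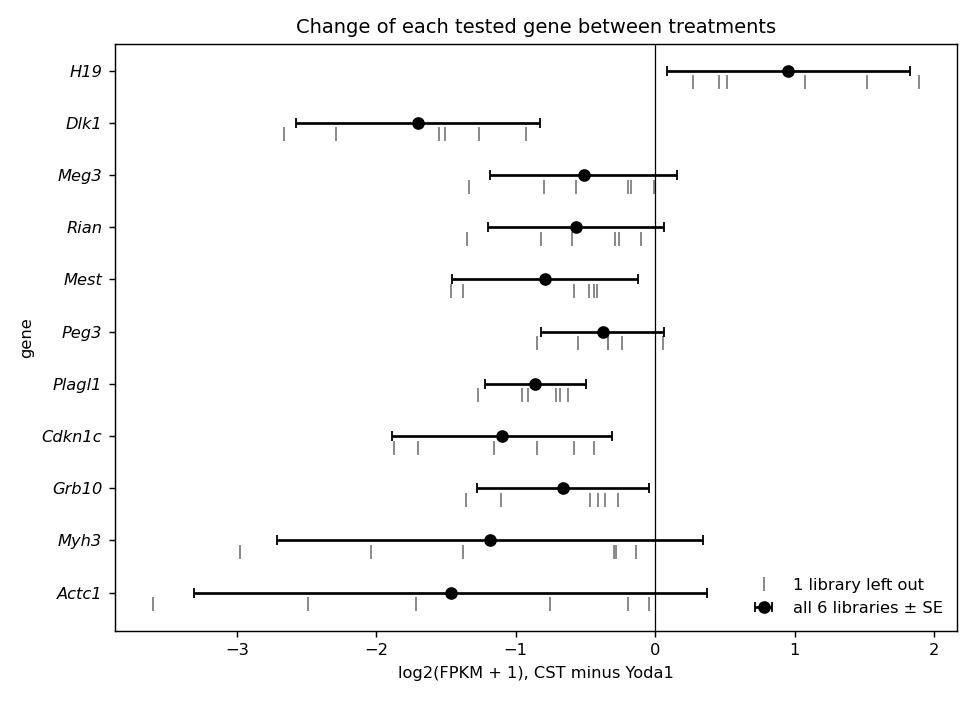
Difference CST minus Yoda1 of each tested gene in log2(FPKM + 1), as the limma estimate with its SE (black) and the estimates with 1 library left out (grey ticks below each). H19 is positive at 0.95 and the other 10 are negative; the tick to the right of 0 in the Peg3 row is the value without CST mouse 3.

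A single library moved the sizes. Without Yoda1 mouse 3, in which 5 of the 6 genes of the second set were lowest or second lowest, the tested network genes had a median log2 change of -1.35, and with Yoda1 mouse 2 left out instead the median was -0.26. For Meg3, leaving out Yoda1 mouse 3 gave a log2 change of -1.34, and leaving out Yoda1 mouse 1 gave -0.01. H19 had 1.89 without Yoda1 mouse 2 and 0.27 without CST mouse 2. Dlk1 had -2.66 when Yoda1 mouse 3 was left out and -0.93 when Yoda1 mouse 2 was. With both mice numbered 2 left out, a setting chosen after their Myh3 levels were seen, H19 had a log2 change of 1.21, Cdkn1c -1.21, Dlk1 -1.52, Myh3 -1.93 and Actc1 -2.33, and 0 network genes were called.

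How far the network followed the embryonic muscle genes was measured over the 6 libraries as a correlation of log2(FPKM + 1), in 20 pairs of a network gene with Myh3 or Actc1. Pearson's r was above 0 in all 20 pairs, and 0 pairs passed after Benjamini-Hochberg adjustment over the 20 (exact permutation of the 720 pairings, two-sided). Igf2 lay closest to Myh3, with r = 0.97 (exact permutation p = 0.00694, adjusted p = 0.097) and Spearman's rho = 0.94 (exact permutation p = 0.017, adjusted p = 0.167). Cdkn1c followed Actc1 with r = 0.88 (exact permutation p = 0.032, adjusted p = 0.144) and rho = 0.89 (exact permutation p = 0.033, adjusted p = 0.167). Peg3 followed Actc1 with r = 0.87 (exact permutation p = 0.018, adjusted p = 0.120) and rho = 0.94 (exact permutation p = 0.017, adjusted p = 0.167). Meg3 lay lowest, with r = 0.30 to Actc1 (exact permutation p = 0.525, adjusted p = 0.525) and rho = 0.26 (exact permutation p = 0.658, adjusted p = 0.658).

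Part of these relations rested on the 2 libraries farthest from the median of the muscle gene, which in all 20 pairs were CST mouse 2 and Yoda1 mouse 2. Without them r was 0.87 for Igf2 with Myh3, 0.57 for Cdkn1c with Actc1 and 0.72 for Peg3 with Actc1, over 4 libraries. In these 4 libraries Igf2 rests on 1 and 4 reads in CST mice 1 and 3, and on 3 and 10 in Yoda1 mice 1 and 3. Its r of 0.87 is therefore limited by counting error. For H19 with Myh3 it was 0.68 over 6 libraries (exact permutation p = 0.176, adjusted p = 0.303; rho = 0.43, exact permutation p = 0.419, adjusted p = 0.599) and -0.83 without the 2, so the relation of H19 to Myh3 rested on them. In the other 4 libraries H19 was higher in CST mice 1 and 3, where Myh3 was lowest.

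**Figure D5:**
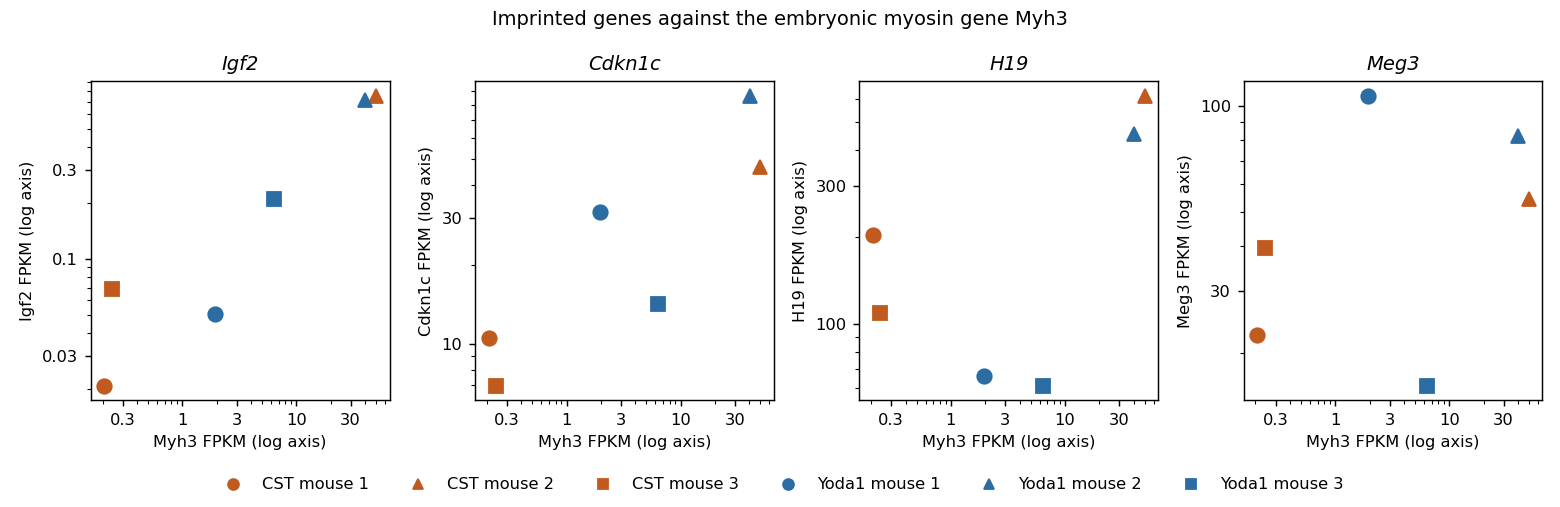
FPKM of Igf2, Cdkn1c, H19 and Meg3 against that of Myh3, both on log axes, with 1 point per mouse. The mice numbered 2 lie at the upper right for Igf2, Cdkn1c and H19, with Igf2 at 0.758 and 0.717 FPKM, whereas the highest Meg3 value, 107 FPKM, belongs to Yoda1 mouse 1, with Myh3 at 1.94 FPKM.

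The genes most like Igf2 over the 6 libraries, by Pearson's r of log2(FPKM + 1) over the tested genes with proper names, were Cldn2, a tight junction protein gene (r = 0.993), Chrng (0.992) and Myh8 (0.991). Myh3 stood at rank 15 and Actc1 at rank 24 of 13180 genes. Those most like H19 were Colq, which anchors acetylcholinesterase at the neuromuscular junction (0.994), Reep1, a protein that shapes the endoplasmic reticulum (0.981), and Ptx3, a secreted pattern recognition protein (0.975). For H19, Myh3 stood at rank 435 (r = 0.68) and Actc1 at rank 380 (r = 0.70) of 13179 genes. All 6 libraries enter each of these values, which are given as a description.

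Adult muscle transcripts moved in another way over the libraries than the embryonic ones. The summed level of 26 adult skeletal muscle genes was 20968, 10269 and 19107 FPKM in CST mice 1 to 3, against 182, 7652 and 875 in Yoda1 mice 1 to 3, with all 26 detected. Their median log2 change was 3.92, with 0 of 26 called and 24 of 26 without overlap between treatments, where 6.59% of all tested genes had none. All 26 were called higher in CST skin without Yoda1 mouse 2 (0.932% of all tested genes), with both mice numbered 2 left out (1.18%) and with library weights (9.24%), with medians of 5.28, 5.60 and 5.39. H19 was lowest in Yoda1 mice 1 and 3, the 2 libraries with the least adult muscle RNA. At the upper end the orders differed. H19 was highest in CST mouse 2 (617 FPKM) and Yoda1 mouse 2 (454 FPKM). In CST mice 1 and 3, which had the most adult muscle RNA, it measured 202 and 109 FPKM. Tnnt3, the fast troponin T gene that lies beside H19 on chromosome 7, measured 1806, 1093 and 2172 FPKM in CST mice, against 14.7, 858 and 66.9 in Yoda1 mice. Its log2 change was 4.07 (standard error 1.24, adjusted p = 0.688 by limma), and its 3 CST values all exceeded its 3 Yoda1 values. Tnnt3 was called without Yoda1 mouse 2 (5.64, adjusted p = 0.007 by limma), with both mice numbered 2 left out (5.93, adjusted p = 0.003) and with library weights (6.11, adjusted p = 0.018). In bulk skin, fewer cells of a type and less RNA per cell cannot be told apart, and the part of muscle content in the network values was not tested.

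The summed levels of connective tissue and macrophage markers had the order of part of the second set. The summed level of 10 dermal fibroblast genes was 4220, 6590 and 5678 FPKM in CST mice 1 to 3, against 12411, 10787 and 4128 in Yoda1 mice 1 to 3, with 10 of 10 detected. That of 7 macrophage genes was 1098, 1399 and 1023 FPKM in CST mice, against 2566, 3592 and 820 in Yoda1 mice, with 7 of 7 detected, 0 of 7 called and a median log2 change of -0.83. Like Meg3, Rian and Grb10, both sums were highest in Yoda1 mice 1 and 2 and lowest in Yoda1 mouse 3. Abundant collagen genes weigh most in the fibroblast sum. Of the other fibroblast genes, Pdgfrb, Dcn, Lum, Fbln1 and Postn were each lowest in a CST mouse. In 6 of the 10 fibroblast genes and 7 of the 7 macrophage genes the 2 highest libraries were Yoda1 mice 1 and 2, where 15.1% of all tested genes had this order. limma called 0 of the 10 fibroblast genes in either direction, and their median log2 change was -0.51, or -0.20 without Yoda1 mouse 1 and -0.98 without Yoda1 mouse 3. With library weights, 6 of the 10 fibroblast genes, Postn and Lum among them, and 6 of the 7 macrophage genes were called lower in CST skin (9.24% of all tested genes were called in either direction). Postn, a matrix protein of healing tissue, had a log2 change of -0.96 (standard error 0.36, adjusted p = 0.965 by limma), and Lum, a collagen-binding proteoglycan, one of -0.70 (standard error 0.30, adjusted p = 1.000 by limma). Postn had another order, with its 2 highest values in Yoda1 mice 1 and 3. It was the 1 of the 10 fibroblast genes without overlap between treatments, lower in CST skin (6.59% of all tested genes had none, in either direction). The part of these cell types in the network values was not tested.

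Other imprinted genes were followed as a list of 36, of which 25 were tested. Of these, 0 were called in either direction, 9 had a positive and 16 a negative log2 change, and the median was -0.07, against -0.02 over all tested genes. Ndn, a paternally expressed regulator of cell growth, measured 5.70 ± 0.296 FPKM in CST skin and 9.95 ± 4.15 FPKM in Yoda1 skin (SD, n = 3 each). Dcn, the proteoglycan decorin, which also stands in the fibroblast list, measured 628 ± 179 FPKM in CST skin and 933 ± 241 FPKM in Yoda1 skin. Both had their 2 highest values in Yoda1 mice 1 and 2, as had 6 of the 25. With library weights 3 of the 25, Ndn and Dcn among them, were called lower in CST skin, where 9.24% of all tested genes were called in either direction. Ascl2 and Slc38a4 were the 2 of the 25 without overlap between treatments (6.59% over all tested genes), with the CST values above the Yoda1 values in both. Ascl2, a transcription factor gene, had a log2 change of 0.85 (standard error 0.37, adjusted p = 1.000 by limma), and Slc38a4, an amino acid transporter gene, one of 0.44 (standard error 0.26, adjusted p = 1.000 by limma).

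Neighbours within the imprinted clusters did not share one pattern. Of 20 such genes 13 were tested, with 0 called, 7 positive and 6 negative, and a median log2 change of 0.05. Besides Tnnt3, Cobl, an actin nucleator gene beside Grb10, had its 3 CST values above its 3 Yoda1 values (15.3 ± 2.37 FPKM in CST skin and 10.8 ± 2.37 FPKM in Yoda1 skin, SD, n = 3 each). Mirg (log2 change -0.54, standard error 0.47) and Kcnq1, a potassium channel gene of the Cdkn1c cluster (-0.30, standard error 0.32), had their 2 highest values in Yoda1 mice 1 and 2. Both had an adjusted p of 1.000 by limma. With library weights 3 of the 13 were called, 2 higher in CST skin, which were Tnnt3 and Cobl, and 1 lower (9.24% of all tested genes were called).

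The IGF pathway, through which Igf2 and Grb10 act, had no gene called with libraries weighted equally. Of a list of 21, which shares Igf2r with the imprinted list, 18 were tested, with 0 called, 11 positive and 7 negative, and a median log2 change of 0.02. Igf1r, the receptor of both IGF ligands, measured 31.5, 21.2 and 17.2 FPKM in CST mice 1 to 3, against 15.95, 11.9 and 17.9 in Yoda1 mice 1 to 3. Its treatments overlapped, with CST mouse 3 below Yoda1 mouse 3 (log2 change 0.56, standard error 0.28, adjusted p = 1.000 by limma). Igf1, the growth factor that takes over from Igf2 after birth, measured 30.04, 26.7 and 24.6 FPKM in CST mice, against 59.6, 43.7 and 24.1 in Yoda1 mice. Igf1 thus had the order of the second set, high in Yoda1 mice 1 and 2 and low in Yoda1 mouse 3 (log2 change -0.54, standard error 0.32, adjusted p = 1.000 by limma). With library weights 2 of the 18 were called lower in CST skin, 1 of them Igf1 (-1.10, adjusted p = 0.017 by limma). Of all tested genes 9.24% were called in that setting, in either direction. Irs2, an insulin receptor substrate gene, had a log2 change of 0.43 (standard error 0.25) and Igfbp7, an IGF-binding protein gene, one of -0.40 (standard error 0.27), each with an adjusted p of 1.000 by limma.

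The libraries as a whole held between 23791352 and 29620526 reads. Of the summed FPKM, mitochondrial transcripts made up 6.72% for CST mouse 1, 7.61% for Yoda1 mouse 3 and 3.25% to 3.81% for the rest. The samples carry labels for keratinocytes as well as skin. All 10 keratinocyte markers were detected in each library, with a summed level of 13832 to 21115 FPKM in CST mice and 10992 to 25823 FPKM in Yoda1 mice. Endothelial markers, with all 6 detected, summed to 74.9 to 159 FPKM in CST mice and 77.7 to 157 FPKM in Yoda1 mice. Adipocyte markers summed to 306 to 419 FPKM in CST mice and 375 to 1413 FPKM in Yoda1 mice, highest in Yoda1 mouse 1. Neutrophil markers summed to 1714 to 11016 FPKM in CST mice and 681 to 4096 FPKM in Yoda1 mice, highest in CST mouse 1.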

How the data were processed

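RNA-seq of skin from 6 mice (3 CST, 3 Yoda1) was used, grouped and numbered by sample title. The authors deposited 1 table of FPKM values per gene. Per the labels, total RNA was isolated with a Qiagen kit; no source used here gives the aligner, counter or strandedness. Genome builds named by the submitters' processing notes are GRCm38 and mm10, but of 52029 identifiers found in GENCODE M21 2.81% had the deposited start, so positions are those of GENCODE M21, matched by identifier.

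The steps of the deposited FPKM values gave whole reads for 100% of 30697 genes above 0 (within 0.0001 reads), with 1 read on 1 kb worth 0.0338 to 0.0420 FPKM; precision from depth covers counting error only. Gene lengths behind the values were shorter than the annotated exon length (2110 against 18089 bases for Meg3), which bears on levels between genes only.

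limma 3.58.1 in R 4.3.3 (eBayes with trend, no covariates) was run two-sided on log2(FPKM + 1) of 14588 genes averaging 1 FPKM or more, with Benjamini-Hochberg adjustment over all and a threshold of 0.05. Changes are CST minus Yoda1, a scale that understates low genes. The procedure was tested on simulated data with the same dispersion for all genes. That test does not measure its power at the spread between mice seen here. The labels do not say whether mice share litters or batches. The 10 genes, the lists and the tests were chosen with earlier results of these data known. Named genes are the 10, Myh3, Actc1, up to 4 of smallest p in each described list and the 3 most like Igf2 and H19. Pax7 and the other satellite cell genes, Rtl1, Dio3, Copg2, Igf2os and Gm49394 were named beyond that rule. Alternatives covered pseudocount, filter, scaling, variance model, library weights, recovered reads, mouse number and left-out libraries.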

Additional observations from a re-analysis of the deposited data

How the results depend on the processing

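The log2 changes of the 9 tested network genes kept their direction in 142 of 143 alternatives. The exception was Peg3, at -0.85 to 0.056 with 1 library left out. Both other filters, the model without trend and the replicate block are counted among the 143. They leave a log2 change as in the main fit (0.954 for H19 in each), so they could not alter its direction. With library weights estimated by limma 1348 of all tested genes and 2 network genes, Plagl1 and Rian, were called (9.24% of all tested genes). In the same setting Myh3 (2.23), Actc1 (2.49) and Mymx (1.96) turned positive. The weights were 12.8 for Yoda1 mouse 1, 2.47 for CST mouse 2 and 0.193 to 0.822 for the rest. Weighted estimates thus rest mainly on those 2 libraries, and why the weights differ was not tested. With 1 library left out the count over all genes ran from 0 to 136 and that over the network genes was 0 to 0, Myh3 ran from -2.98 to -0.14 and Mymx, a muscle fusion gene, from -2.22 to 0.033. Leaving out both mice numbered 2, chosen after seeing the data, gave 172 calls and 0 network genes. Of the 20 correlations, 6 reversed without those mice: H19 (-0.83 with Myh3, -0.61 with Actc1), Meg3 (-0.19, -0.27) and Rian (-0.16, -0.23). Over all tested genes, deviations from the group means correlated at -0.08, 0.21 and -0.20 between the CST and Yoda1 mice numbered 1, 2 and 3. Mice of unequal number gave -0.34 to 0.34. These correlations run over all genes and do not show a link that touches only some of them. Whether mice of equal number share a litter or batch was not tested. With the number as a replicate block 0 genes were called. Limma-voom on recovered reads, both other filters, both other scalings, the model without trend and a pseudocount of 0.1 gave 0 calls each. Of the counts over all genes, 136 calls came without Yoda1 mouse 2 and 8 without CST mouse 2. Depth limits Igf2, which rests on at most 42 reads per library.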
